A study of Rattus norvegicus with 8 samples.

Results

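miR-21 is a microRNA whose hairpin precursor yields the guide arm miR-21-5p and the passenger arm miR-21-3p. Both arms were followed in rat synovial tissue, the lining of the joint, by taking every array probe that carries either name, which gave 6 of the 1806 rat miRNA probes and 2 of the 758 rat miRNAs on the array. The 8 arrays were single-colour, each for 1 left-knee sample of the Sprague-Dawley strain. The anterior cruciate ligament had been cut in 4 samples (ACLT, used to model osteoarthritis), and in the other 4 (sham) it had been exposed and left whole, so that both groups carried a surgical wound. The tissue came from the side of the knee opposite the incision. The sampling time is given as 14 days in the title, 2 weeks in the protocol and 7 days in the design text. The labels number the replicates without saying that each is another animal; the spread behind every p-value is therefore that between these samples and may be technical. The comparison asks how the miRNAs of the synovium differ once the ligament is cut.

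During maturation the hairpin is cut into a short duplex, and usually one strand, the guide, stays in the silencing complex while the other, the passenger, is degraded. The guide pairs with messenger RNAs mainly through its seed, bases 2 to 8. miR-21-5p is abundant in many tissues and is known for its induction in inflammation, wound repair and fibrosis. Among its known targets are Pdcd4, which restrains translation, and Spry1, which restrains kinase signalling.

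The sequences are shown because the arms differ in seed and therefore address different messages. In the mature arms the capitals mark the seed, and in the hairpin they mark the arms, 5p before 3p. All are from RefSeq on build GRCr8, minus strand, hairpin at chr10:71902600-71902691.
rno-miR-21-5p: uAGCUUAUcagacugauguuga
rno-miR-21-3p: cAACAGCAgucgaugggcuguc
Mir21 hairpin: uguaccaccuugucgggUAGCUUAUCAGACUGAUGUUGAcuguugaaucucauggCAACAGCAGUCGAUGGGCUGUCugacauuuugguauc

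Each arm is 22 bases long, at chr10:71902653-71902674 for miR-21-5p and chr10:71902615-71902636 for miR-21-3p, with 16 bases of loop between them. G and C make up 36.4% of the guide and 59.1% of the passenger. In the predicted fold of the hairpin, 19 base pairs join the arms, 3 of them G-U pairs, and all 7 seed bases of the guide are paired with the passenger. Among 693 mature rat miRNAs in that table no other one carries either seed. In the gene table of the same build Mir21 overlaps no other gene, and its nearest coding neighbours are Vmp1 and Tubd1. The array files name an older build, rn4, and no array value was placed by coordinate.

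miR-21-5p was measured well above background by both of its probes on all 8 arrays, and its mean was higher after ACLT, by an amount that did not pass the test over all miRNAs. In neither group did a miR-21-3p probe stand well above background. The processed signal of the brighter miR-21-5p probe (A_26_P00001210), in linear units before any scaling, read 3361, 5692, 1218 and 745 from ACLT replicate 1 to replicate 4. In sham tissue it read 825, 641, 534 and 3906. ACLT replicates 1 and 2 and sham replicate 4 thus gave several times the signal of the other arrays, and these 3 arrays were bright as a whole.

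After division by each array's 75th percentile, the log2 level of miR-21-5p after ACLT was 2.08, 2.38, 1.79 and 1.29 for replicates 1 to 4. In sham tissue it was 1.51, 1.02, 0.60 and 1.72, in the same order. The groups overlapped: 3 ACLT arrays lay above every sham array, while ACLT replicate 4 lay below sham replicates 1 and 4. All 4 ACLT arrays lay above the sham mean, as they did for 6 of 113 tested miRNAs (5.31%).

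The ACLT mean was 1.88 ± 0.46 (SD, n = 4). The sham mean was 1.21 ± 0.51 (SD, n = 4). The log2 difference was 0.67 (SE 0.32, 95% interval -0.09 to 1.43), which is 1.59-fold with an interval from 0.94-fold to 2.69-fold. By limma with Benjamini-Hochberg adjustment the adjusted p was 0.645 and the unadjusted p 0.0743. Over all miRNAs limma called 0 of 113 (0%), and 8 had an unadjusted p under 0.05 (7.08%), of which 0 were higher after ACLT. An exact two-sided permutation test of the miR-21-5p level gave p = 0.114, the smallest possible being 0.0286. Neither test separates the groups, and neither shows that they are alike: the interval holds no change as well as a rise of more than 2-fold. From the lowest to the highest array, levels ranged over 2.13-fold within the ACLT group and over 2.18-fold within the sham group. Such a range is a wider measure than the 1.59-fold between the means. On the log2 scale the difference of 0.67 stood beside a pooled SD of 0.48 between arrays of a group.

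**Figure D1:**
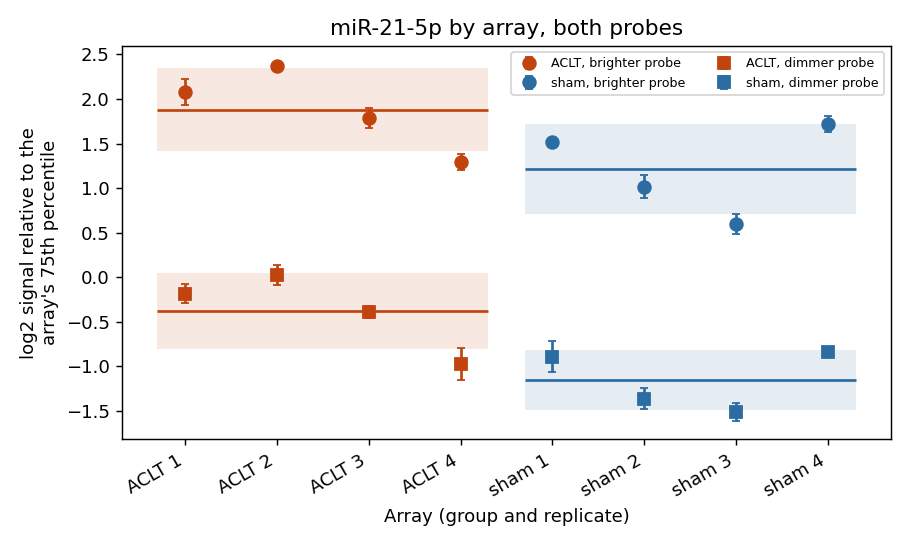
log2 signal of miR-21-5p relative to each array's 75th percentile (vertical axis) on each array (horizontal axis). Circles are the brighter probe and squares the dimmer one, bars the SD over spots of a probe, and lines with shading the group mean ± SD over 4 arrays. On both probes ACLT replicate 2 is highest and sham replicate 3 lowest, and ACLT replicate 4 lies below sham replicate 4.

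The dimmer probe (A_26_P00001211), which targets the same miRNA and is no replicate, repeated the order of the groups. Its processed signal read 702, 1114, 270 and 156 after ACLT, and 155, 123, 124 and 661 in sham tissue. Relative to the 75th percentile its log2 level was -0.18, 0.02, -0.39 and -0.97 after ACLT. After sham surgery it was -0.90, -1.36, -1.51 and -0.84. ACLT replicate 4 again lay below sham replicates 1 and 4, so the groups overlapped here too. Its difference was 0.77 (SE 0.26, 95% interval 0.14 to 1.41). In a limma fit of all 238 probes of the tested miRNAs the unadjusted p was 0.0239 and the adjusted p 0.679. That fit called 0 of 238 probes (0%), and 17 had an unadjusted p under 0.05 (7.14%).

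Spots and probes were far less variable than arrays. Each miR-21-5p probe had 8 spots per array, of which 111 of 128 over both probes and all arrays were kept, and all 111 were well above background. The SD of the log2 signal over the spots of a probe was 0.108 in the median, from 0.0194 to 0.18, against 0.46 and 0.51 between arrays of a group. The brighter probe exceeded the dimmer one by 2.11 (sham replicate 3) to 2.56 (sham replicate 4) on the log2 scale. On ACLT arrays this offset ran from 2.18 to 2.35. No spot of either arm was saturated (0).

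Array brightness moved with miR-21-5p even after scaling. The 75th percentile was 797, 1097 and 1185 signal units on ACLT replicates 1 and 2 and sham replicate 4, and 289 to 353 on the other 5 arrays. The miR-21-5p level was 1.72 to 2.38 on the 3 bright arrays and 0.60 to 1.79 on the 5 dim ones. The mean difference between bright and dim arrays was 0.82, the largest of the 78 miRNAs above the floor on every array, where the median was 0.12 and 47 were positive. The arrays were split here by brightness and not by surgery. The 3 bright arrays also had more miRNAs detected (149 to 184) than the dim ones (111 to 126). Because brightness falls into separate clusters, no correlation with it is given.

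Within each brightness class the ACLT mean was also higher, with intervals that included 0. Among the bright arrays, 2 ACLT against 1 sham, the difference was 0.51 (95% interval -0.93 to 1.94). Among the dim arrays, 2 ACLT against 3 sham, it was 0.50 (95% interval -0.46 to 1.45). With log2 brightness as a covariate in limma it was 0.54 (95% interval -0.03 to 1.12, adjusted p = 0.370). These 3 fits were chosen after seeing the data.

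**Figure D2:**
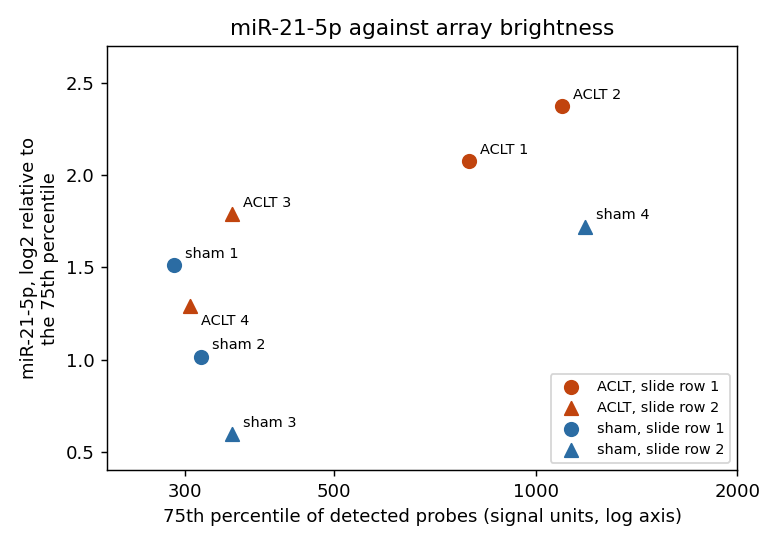
Level of miR-21-5p (vertical axis, log2 relative to the 75th percentile) against that percentile in signal units (horizontal log axis), 1 point per array, red ACLT and blue sham, circles slide row 1 and triangles slide row 2. The 3 bright arrays lie at 1.72 to 2.38, and 1 of the 5 dim arrays, ACLT replicate 3 at 1.79, reaches that range.

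The slide held the arrays in 2 rows, row 1 with the arrays numbered 1 and 2 of each group and row 2 with the rest. In row 1 both ACLT arrays (2.08 and 2.38) lay above both sham arrays (1.51 and 1.02), a difference of 0.96 (limma, 95% interval 0.14 to 1.78, adjusted p = 0.184). In row 2 the groups overlapped (1.79 and 1.29 against 0.60 and 1.72), with a difference of 0.38 (95% interval -1.35 to 2.11, adjusted p = 0.839). The difference between rows was -0.58 (95% interval -2.15 to 0.99) and did not pass (limma interaction, adjusted p = 0.669). In row 1 both ACLT arrays were bright and both sham arrays dim, so row 1 alone cannot tell surgery and brightness apart.

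The sign of the miR-21-5p difference was positive under 33 of 33 other settings, which share most of their arrays and are not separate checks. The difference ran from 0.38 (within slide row 2) to 1.05 (75th percentile over all probes), and 0 of the 33 brought the adjusted p under 0.05 (0.184 to 1). Unscaled signals gave 0.99, and levels relative to the labelling spike-ins gave 0.50. Set against the median difference of all tested miRNAs under the same scaling, miR-21-5p stood 0.74 higher as reported, 0.81 higher unscaled and 0.75 higher with the spike-ins. Scaling by a single factor per array cancels in this comparison, apart from values set to the floor. These values therefore had to be alike and are no check on the scaling. After quantile normalization, which does not cancel in this way, it stood 0.45 higher. The 95% interval lay above 0 under 6 settings. Among them was the 75th percentile taken without striated muscle probes (0.86, 0.19 to 1.53, unadjusted p = 0.0193, adjusted p = 0.513). Without ACLT replicate 4 the difference was 0.87 and without sham replicate 4 it was 0.84, while without sham replicate 3 it was 0.47.

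**Figure D3:**
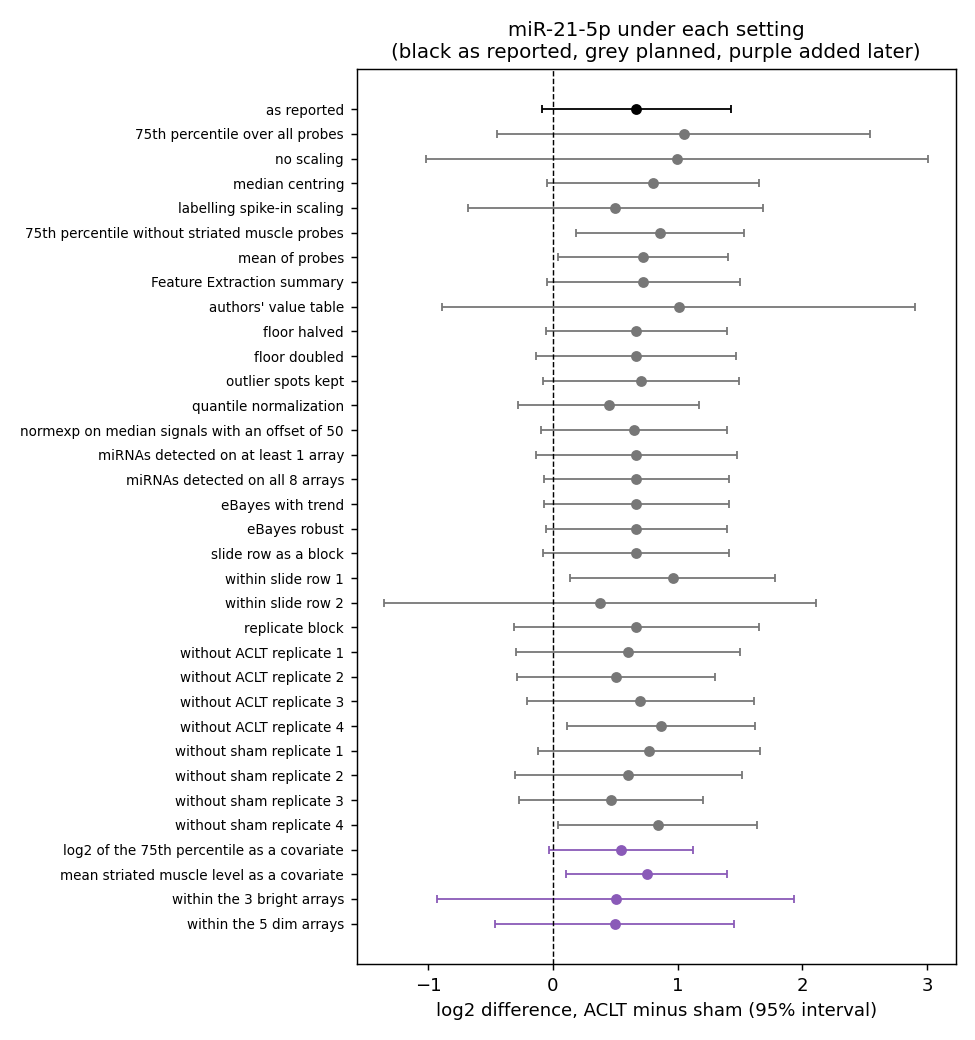
Difference of miR-21-5p, ACLT minus sham, on the log2 scale (horizontal axis) under each setting (vertical axis), with 95% intervals from limma; the dashed line marks 0, black is the reported value, grey the alternatives and purple those added after seeing the data. All points lie between 0.38 and 1.05, and most intervals cross 0.

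The passenger arm gave no level. Each of its 4 probes had 4 spots per array, and 1 of the 124 spots kept was well above background, on ACLT replicate 3. The probe means lay between -2.76 and 14.3 signal units, and on no array was a probe well above background. Negative control spots on the same arrays averaged 4.71 to 6.51 signal units, with SDs of 3.38 to 3.84. Of the 4 probes, the brightest reading after ACLT was 8.38, 14.3, 7.94 and 4.81, and in sham tissue 5.60, 4.61, 3.37 and 3.62. The reading of 7.94 holds the 1 spot well above background and had an SD of 7.99 over its spots. The mean of the 4 probes was 3.20, 6.32, 1.98 and 2.41 after ACLT. In sham tissue it was 2.28, 1.81, 0.61 and 1.55. Only on ACLT replicate 2 did that mean exceed the mean of the negative controls (4.71). The reading of 14.3 on ACLT replicate 2 was the only one of the 32 above the 95th percentile of its array's negative controls (11.9), and it stayed below the dimmest probe well above background there (17.3).

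Feature Extraction called miR-21-3p detected on that array alone, with a summary signal of 3.80, and on 0 of 4 sham arrays. With 1 detection in all, Fisher's exact test can only give p = 1 and says nothing about a difference. ACLT replicate 2 also had the highest miR-21-5p level. As no probe was well above background in either group no fold is given, and neither the ratio of the arms nor its change with surgery could be measured.

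**Figure D4:**
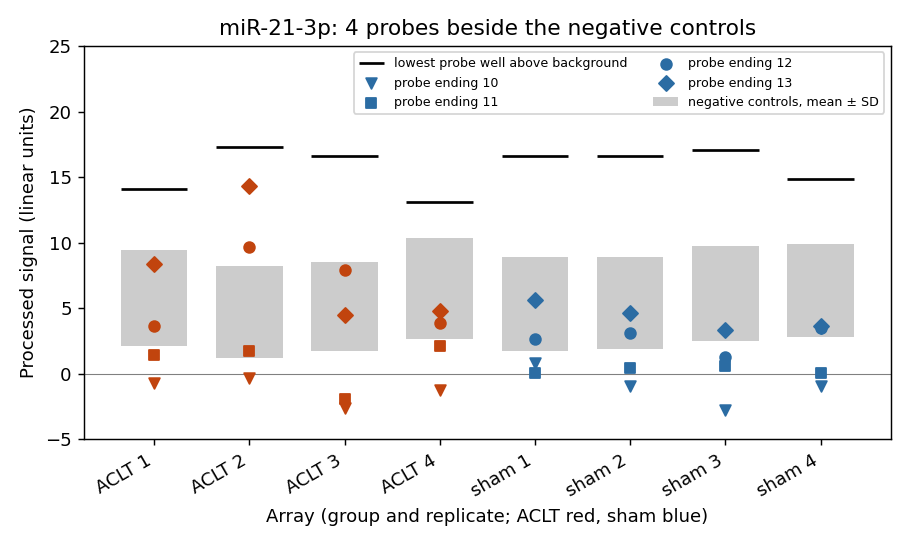
Processed signal in linear units (vertical axis) of the 4 miR-21-3p probes on each array (horizontal axis; red ACLT, blue sham). Grey boxes are the negative control spots, mean ± SD, and black lines the dimmest probe well above background; every miR-21-3p point lies below its line, the nearest being 14.3 against 17.3 on ACLT replicate 2.

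Among precursors with an arm detected on every array, most had the other arm on none. Of 281 precursors with both arms on the array, 142 had neither arm detected on any array and 79 had an arm detected on all 8. In 62 of these 79 the other arm was detected on no array, and in 4, miR-21 among them, on 1 array. Both arms could be tested for 4 precursors. For the cartilage miRNA miR-140 the differences were 0.38 (SE 0.33) for the 5p arm and 0.25 (SE 0.32) for the 3p arm, and for miR-199a, of mesenchymal cells, 0.09 (SE 0.17) and -0.0057 (SE 0.24). For miR-652 they were -0.30 (SE 0.43) and -0.10 (SE 0.12), and for miR-99a -0.24 (SE 0.18) and -0.08 (SE 0.09). None of these 8 arms passed (limma, adjusted p 0.806 to 1).

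Set among all tested miRNAs, miR-21-5p ranked 10th by size of difference in either direction and 13th by unadjusted p of limma. Among positive differences alone, it was the 2nd highest. Above it stood miR-133a-5p of striated muscle (1.04, SE 0.77), at the floor on 1 array, and below it miR-34a-5p, which p53 induces (0.58, SE 0.27). The largest negative differences were those of miR-6216 (-1.19, SE 0.46), miR-494-3p (-1.16, SE 0.88) and miR-3473 (-1.12, SE 0.55). None passed by limma (adjusted p = 0.645 to 0.806). Of the 113 differences 38 were positive and 73 negative, with a median of -0.07, and the median SE was 0.19. Of the 113 miRNAs 78 lay above the floor on every array. For the others, values set to the floor can narrow both the difference and the SE. The SE of miR-21-5p, 0.32, was the 24th highest.

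The miRNA most like miR-21-5p over the 8 arrays was miR-34a-5p. Likeness was Pearson's r of the scaled log2 levels against 77 other miRNAs above the floor on every array, whose median r was 0.14; the arrays share their scaling and brightness, so r is a description. For miR-34a-5p r was 0.97, and 0.95 after each group's mean was taken out. Its level was -0.996, -0.67, -1.27 and -1.32 after ACLT and -1.32, -1.84, -2.25 and -1.17 after sham surgery. As for miR-21-5p, ACLT replicate 2 was its highest array and sham replicate 3 its lowest. Next came miR-140-5p (r = 0.92), miR-27b-3p (0.81), miR-199a-5p (0.78) and miR-98-5p (0.75), a relative of let-7. Their differences were 0.38, 0.14, 0.09 and 0.03 (SE 0.33, 0.14, 0.17 and 0.10). After centring each array on the median of the tested miRNAs, the r of these 5 was 0.90 to 0.98.

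The least like were miR-6216 (r = -0.85) and miR-3473 (r = -0.84). miR-3473 was at -2.07, -1.50, -1.27 and -0.86 after ACLT and at -0.44, 0.74, 0.20 and -1.73 after sham surgery. Its lowest sham array was thus the highest sham array of miR-21-5p. Without scaling, their r with miR-21-5p came to 0.24 and 0.02, so the opposed pattern holds only for scaled levels.

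**Figure D5:**
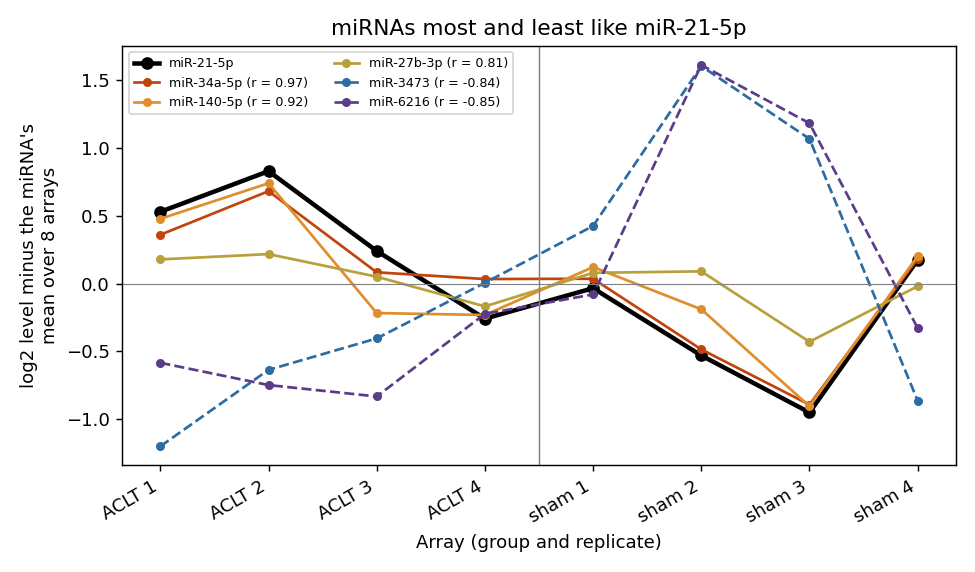
log2 level of each miRNA minus its own mean over the 8 arrays (vertical axis) on each array (horizontal axis; the grey vertical line parts ACLT from sham); lines join the values of 1 miRNA and carry no order among replicates. miR-34a-5p and miR-140-5p run close to miR-21-5p, peaking on ACLT replicate 2 and lowest on sham replicate 3, while miR-3473 and miR-6216 (dashed) run against it.

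A list of 30 miRNAs often described beside miR-21 in inflammation, wound repair and fibrosis was read in the same fit. Of these, 29 were on the array and 18 were tested; 0 of the 18 passed by limma (0% of all 113). An unadjusted p under 0.05 was reached by 2 of the 18, against 7.08% of all tested miRNAs, and both, miR-223-3p and miR-125b-5p, had lower means after ACLT. The difference was positive for 13 and negative for 5, with a median of 0.08, against -0.07 over all tested miRNAs. Without miR-21-5p the median of the other 17 was 0.07. The list's median was -0.09 with spike-in scaling and 0.46 with the 75th percentile over all probes. These scalings move all miRNAs together, by a median of -0.17 and 0.38, so a sign near 0 depends on the scaling.

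Among miRNAs of inflammatory and myeloid cells, miR-223-3p, abundant in neutrophils, had a lower mean after ACLT (-0.32, 95% interval -0.58 to -0.05, adjusted p = 0.645 by limma). miR-146a-5p, a feedback inhibitor of NF-kappaB signalling, differed by -0.13 (SE 0.16) and miR-221-3p by 0.04 (SE 0.17). miR-155-5p, miR-146b-5p, miR-222-3p and miR-212-3p were detected on 2, 5, 1 and 1 arrays and miR-132-3p on 0, and these were not tested. The sign of miR-223-3p held under 4 of 6 other scalings. Among those that turned it was the 75th percentile over all probes (0.06).

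Among miRNAs of matrix and mesenchyme, the miR-29 family, which represses collagen messages, had differences of 0.04 (miR-29a-3p, SE 0.10), 0.07 (miR-29b-3p, SE 0.23) and 0.31 (miR-29c-3p, SE 0.20). miR-214-3p stood at 0.09 (SE 0.20), beside the miR-199a arms given above. miR-23a-3p, miR-23b-3p, miR-24-3p, miR-27a-3p and miR-27b-3p, which are made from paired clusters, lay between 0.06 and 0.14, within the shift that spike-in scaling gives to all miRNAs, which turned all 5 negative. miR-125b-5p, a relative of lin-4, differed by -0.38 (SE 0.13, adjusted p = 0.645 by limma), and miR-19b-3p of the miR-17-92 cluster by -0.07 (SE 0.24).

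Other cells of the joint were read through their miRNAs. The files hold no marker of the synovial lining itself; of 5 mesenchymal miRNAs 4 were detected on all arrays, and of 7 epithelial ones 0 were detected on any. Fewer cells of a type and less RNA per cell cannot be told apart in such bulk tissue. The tested cartilage miRNAs were both arms of miR-140 and miR-455-3p. On most arrays miR-455-3p lay at or near the floor of -4.48 (mean -4.47 after ACLT and -4.40 in sham tissue). Their mean thus varied mainly with the precursor miR-140, whose 5p arm is named above among the miRNAs most like miR-21-5p. The mean log2 level of the 3 tested cartilage miRNAs, of 4 listed, was set against miR-21-5p over the 8 arrays (Pearson r = 0.81, exact permutation p = 0.0179, adjusted p = 0.0537 over 3 marker lists; Spearman rho = 0.64, p = 0.0962, adjusted p = 0.227). Without ACLT replicate 2 and sham replicate 3, the arrays farthest from the median, r was 0.36 (exact permutation p = 0.478). Those arrays are also the extremes of miR-21-5p. Leaving them out narrows the range, which lowers r also where a relation is real. The fall therefore cannot show whether the relation rests on those arrays. The summed linear level of the cartilage miRNAs was 0.407 to 0.734 after ACLT and 0.286 to 0.599 after sham surgery, and its part in the miR-21-5p difference was not tested.

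For 4 tested leukocyte miRNAs of 7 listed, r was -0.52 (exact permutation p = 0.182, adjusted p = 0.273; Spearman rho = -0.57, p = 0.151, adjusted p = 0.227), and -0.27 (exact permutation p = 0.608) without ACLT replicate 1 and sham replicate 2. With unscaled signals r turned to 0.89 (exact permutation p = 0.0167; Spearman rho = 0.57, permutation p = 0.151), so its direction depends on the scaling. Unscaled levels of all miRNAs carry the brightness of their array, so this r cannot be read as a relation to leukocytes. Their summed level was 0.422 to 0.533 after ACLT and 0.457 to 0.568 after sham surgery. All 7 were detected on at least 1 array. For 5 tested striated muscle miRNAs of 9 listed, r was -0.41 (exact permutation p = 0.314, adjusted p = 0.314; Spearman rho = -0.29, p = 0.501, adjusted p = 0.501), and it turned to 0.24 (exact permutation p = 0.647) without ACLT replicates 2 and 4. Their mean level ran from -4.35 on ACLT replicate 2, where miR-21-5p was highest, to 1.77 on ACLT replicate 4, where it was lowest among the ACLT arrays. The summed level was 0.25 to 23.4 after ACLT and 2.06 to 8.89 after sham surgery, and 2 of the 9 were detected on no array. ACLT replicates 2 and 4 are the extremes of the muscle level. Leaving them out narrows its range, so the turn to 0.24 cannot show what r rests on. Muscle probes also enter the 75th percentile used for scaling. Without them the mean of miR-21-5p was 2.05 after ACLT and 1.20 in sham tissue. How far this scaling shapes r was not tested. With the mean muscle level as a covariate, chosen after seeing the data, the miR-21-5p difference was 0.75 (limma, 95% interval 0.11 to 1.40, unadjusted p = 0.0292, adjusted p = 0.508).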

How the data were processed

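Total RNA of 8 synovial samples was read on 1 slide of Agilent rat miRNA arrays (Cy3, design 070154) with Agilent Feature Extraction 10.7.3.1, per the file headers. The authors' deposited processed signals are intensity values in linear units, background-subtracted by that software and not scaled between arrays, per the file headers; the authors' deposited value table equals its summary per miRNA (largest difference 0). The labels name a labelling kit made for messenger RNA; whether these arrays were labelled with it remains unknown.

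Control spots and spots marked as outliers were left out, spots of a probe averaged, and each array divided by a 75th percentile, taken over the 136 probes that were well above background (at least 0.5 of their spots) on all arrays. Values under 0.0449, the median over the arrays of the lowest level well above background, were set to it, and log2 was taken. A miRNA was represented by its brightest probe. The 113 miRNAs detected on all 4 arrays of a group were fitted with limma 3.58.1 in R 4.3.3 (lmFit, eBayes), with Benjamini-Hochberg adjustment at 0.05 and 95% intervals. For single values an exact two-sided permutation test was run (70 arrangements). Hairpin pairing came from RNAfold 2.7.2. The limma step was tested on simulated data, with differences larger than that of miR-21-5p. Those data held neither array brightness nor a floor, so the scaling and the floor were not tested by them. miRNAs named are the members, the tested members of a list of 30, the 5 most and 2 least correlated with miR-21-5p, the 3 largest differences each way and precursors with both arms tested. The members and lists were chosen with earlier results of these data known. Deviations from the group means over the 113 miRNAs correlated between same-numbered samples at -0.19, 0.59, 0.80 and -0.41. These values differ in sign and cannot decide whether the replicate numbers pair the samples. The main fit left the samples unpaired, and a fit with replicates as blocks is given below.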

Additional observations from a re-analysis of the deposited data

Results flagged for a closer look

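Of 50 group values examined (25 measures in each group), 1 had an array far from the other 3, where chance gives about 1 in 20, or 2.5. For miR-23b-3p, the log2 level was 0.78 on sham replicate 3, while the remaining sham arrays held 1.17 to 1.24, a gap of 0.855 of the group's range. Sham replicate 3 was also the lowest array of miR-21-5p, whose own values were not set apart in this way in either group.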

How the results depend on the processing

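Leaving out 1 array at a time gave differences of 0.47 to 0.87 for miR-21-5p and its brighter probe and 0.64 to 0.97 for the dimmer probe, list medians of -0.02 to 0.14, and 0 miRNAs called by limma each time. Of the 113 tested miRNAs, limma called 1 with the authors' value table (miR-466d, detected on 4 arrays) and 8 within slide row 1. In the fit as reported miR-466d was at the floor on every ACLT array and did not pass (limma, adjusted p = 0.645). For miR-21-3p the authors' value was 0.1 on every array without detection. A call from that value table can thus rest on a fixed value in place of a measured level. Slide row 1 holds 2 arrays per group, with both ACLT arrays bright and both sham arrays dim. The list median moved to 0.46 (75th percentile over all probes) and to 0.40 without scaling. The correlation with striated muscle turned to 0.24 without the 2 arrays farthest from the median, that with leukocyte miRNAs to 0.89 without scaling, and that with cartilage miRNAs came to 0.98 without scaling. Without scaling all levels share the brightness of their array, so the unscaled r values do not show a stronger relation. The replicate block left the miR-21-5p difference at 0.67 (limma, adjusted p = 0.704) and changed no call. For 2 of the 4 ACLT samples, the sham sample of the same number was the one with the highest correlation. Keeping outlier spots left miR-21-3p with a probe well above background on 0 arrays; the other alternatives for miR-21-3p, and all for the difference between the arms, gave no value. The number of arrays limits the precision, and 11.5% to 17.7% of spots were well above background.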
